A study of Mus musculus with 2 samples.

Results

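The histone genes described here are the 71 rows of a mouse gene expression table, of 50608 rows in all, whose symbols begin with Hist1h to Hist4h, H2af, H3f3 or H1f. Of these, 57 carry Hist symbols and are called replication-dependent genes here by symbol alone, and 14 are variant genes. Among the 57, Hist1h2al and Hist3h2bb-ps are annotated as processed pseudogenes. All 71 rows were picked by symbol, and the group was chosen because Hist1h4j had one of the lowest ratios between the 2 libraries. The ratios below therefore describe these libraries and carry no test. The table holds RNA-seq values, as FPKM (fragments scaled to gene length and to library size), from peritoneal macrophages of C57BL6J mice, pooled from males and females, with a developmental stage labelled E15.5. One library came from cells given the solvent DMSO and the other from cells given GW3965, a compound that activates LXR, the nuclear receptors that switch on cholesterol export genes. The labels state neither a dose nor a time. The deposited column read as GW3965 shares only its opening letters with that sample's label, and each direction below rests on that reading. Neither group has a replicate, so a difference is between 2 libraries and cannot be assigned to the treatment.

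A nucleosome wraps DNA around an octamer of histones H2A, H2B, H3 and H4, and linker histone H1 binds where the DNA enters and leaves. Replication-dependent histone genes are transcribed mainly in S phase. Their mRNAs have no introns and usually end not in a poly(A) tail but in a conserved stem-loop bound by the stem-loop binding protein SLBP. Variant genes are expressed through the cell cycle and in resting cells, and their mRNAs are spliced and polyadenylated in most cases. In cells that rarely divide, variants make up a growing part of the histones. How RNA was selected for these libraries is not stated beyond the name of the kit, so levels of mRNAs with and without a poly(A) tail cannot be set against each other.

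The stem-loop is the feature that separates the classes in sequence, and it also separated the H4 genes from the others. A 16-base match to the histone stem-loop with all 6 base pairs of its stem intact was present in the annotated transcripts of 36 of the 57 replication-dependent genes and in 0 of the 14 variants. The same search matched 22 of 21808 other protein-coding genes (0.101%). By family it was present in 3 of 5 H1, 6 of 14 H2A, 10 of 18 H2B, 7 of 9 H3 and 10 of 11 H4 genes. An absent match says only that these letters are not in the annotated transcript, and in 13 of the 21 replication-dependent genes without one the annotation ends with the coding sequence. The examples below were read from GENCODE M21 transcripts (GRCm38), 5′ to 3′ on the gene's strand, with the stem-loop in capitals and 5 bases on each side in lower case. They show the highest gene of H1, H2A, H3 and H4 and the 2 genes with the rarest stem (Hist1h4b and Hist1h4j). Also shown is Hist1h4h, the gene with which Hist1h4j shares more repeated sequence than with any other. The highest H2B gene, Hist1h2bc, has no match.
Hist1h1c: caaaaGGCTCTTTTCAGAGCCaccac
Hist2h2ac: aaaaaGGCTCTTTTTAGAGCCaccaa
Hist1h3e: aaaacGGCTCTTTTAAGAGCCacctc
Hist1h4h: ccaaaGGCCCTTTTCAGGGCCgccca
Hist1h4d: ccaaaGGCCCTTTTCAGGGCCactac
Hist1h4b: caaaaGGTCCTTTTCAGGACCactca
Hist1h4j: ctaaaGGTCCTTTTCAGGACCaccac
They lie at chr13:23739507-23739532 (plus strand) for Hist1h1c, chr3:96220413-96220438 (minus) for Hist2h2ac, chr13:23561898-23561923 (minus) for Hist1h3e and chr13:23531453-23531478 (plus) for Hist1h4h. The other 3 lie on the plus strand at chr13:23581945-23581970 for Hist1h4d, chr13:23757361-23757386 for Hist1h4b and chr13:21735432-21735457 for Hist1h4j. Each sits in the 3′ UTR of a gene with a single exon.

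The 36 stems fell into 3 spellings. The spelling that opens GGCTCT was in 26 genes, none of them H4. The spelling GGCCCT was in 8 genes, all H4, and GGTCCT was in 2 genes, Hist1h4b and Hist1h4j. The ratios of the groups are given as a description. Measured means a mean of at least 1 FPKM over both libraries, which held for 37 of the 71 rows (30 replication-dependent and 7 variant). Over measured genes, the GW3965 to DMSO ratio of FPKM ran from 0.786 to 1.20 for the 11 genes with GGCTCT, with a median of 0.948. It ran from 0.761 to 1.11 for the 7 genes with GGCCCT, with a median of 0.870, and was 0.719 for Hist1h4b and 0.501 for Hist1h4j. The ratio of Hist1h4j led to the choice of the histone genes, and Hist1h4a, which carries GGCCCT but was not measured, had a lower ratio of 0.322, so nothing is read from the order of the spellings. The spelling also follows the family, so spelling and family cannot be told apart here.

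Read depth was recovered from the FPKM values, which are whole multiples of what 1 read is worth. It came to 101866062 reads in the DMSO library and 75287120 in the GW3965 library, so 1 read on a gene of 1 kb is 0.0109 and 0.0147 FPKM. Any whole multiple of these depths gives whole reads too (395 rows supported the depth given and 393 its double, against 98 at 0.5 times it), so these are the smallest depths that the steps allow. The other measured rows set the scale for every ratio below. Over all 11889 measured rows the median ratio was 1.2465 and the quartiles lay at 0.19 and 0.45 on the log2 scale. Of these rows, 9351 have gene symbols, and the median ratio of those was 1.2255. In the same libraries the 3 rows with the highest FPKM had ratios of 0.628 to 0.739 and held 79.7% of the FPKM sum under DMSO and 65.9% under GW3965. Their part in that shift of the median was not tested. A ratio of 1 thus stands below most rows, and 766 measured rows (6.44%) had a lower FPKM under GW3965 than under DMSO. The 7 macrophage markers were all measured and summed to 4405 and 5197 FPKM, led by Lyz2 (lysozyme). The 4 markers of resident peritoneal macrophages were not measured, with a sum of 1.32 FPKM under DMSO and 1.73 under GW3965.

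Replication-dependent histone mRNAs summed to nearly the same level in both libraries, while most other genes were higher under GW3965. Their 57 rows summed to 193.46 FPKM under DMSO and 192.88 under GW3965. The 14 variant rows summed to 77.4 and 81.3 FPKM. Of the 30 measured replication-dependent genes, 17 were lower and 13 higher under GW3965, with a median ratio of 0.971. Of the 7 measured variants, 2 were lower and 5 higher, with a median ratio of 1.11. The variants' median lay 0.19 above that of the replication-dependent genes on the log2 scale. Against the median of all measured rows, 28 of 30 replication-dependent genes and 7 of 7 variants were below it, where 50% of all measured rows are by definition. Hist2h2ab (1.243) and H2afz (1.234) were below it but above the lower median of the rows with gene symbols (1.2255).

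At 1.5-fold on the log2(FPKM + 1) scale, which understates ratios of low genes, 0 of 37 histone genes were higher under GW3965 (3.46% of all measured rows were). One, Hist1h4j, was lower, as were 0.0757% of all measured rows. With the values centred on the median of all measured rows, Hist1h4j, Hist1h4b and Hist1h4d were lower (0.336% of all measured rows), and no histone gene was higher (1.38%). On the plain ratio, centred the same way, Hist1h2bj and Hist1h4c joined these 3 (1.05% of all measured rows were lower and 2.35% higher). These shares are background only, since Hist1h4j's ratio led to the choice of the group.

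**Figure D1:**
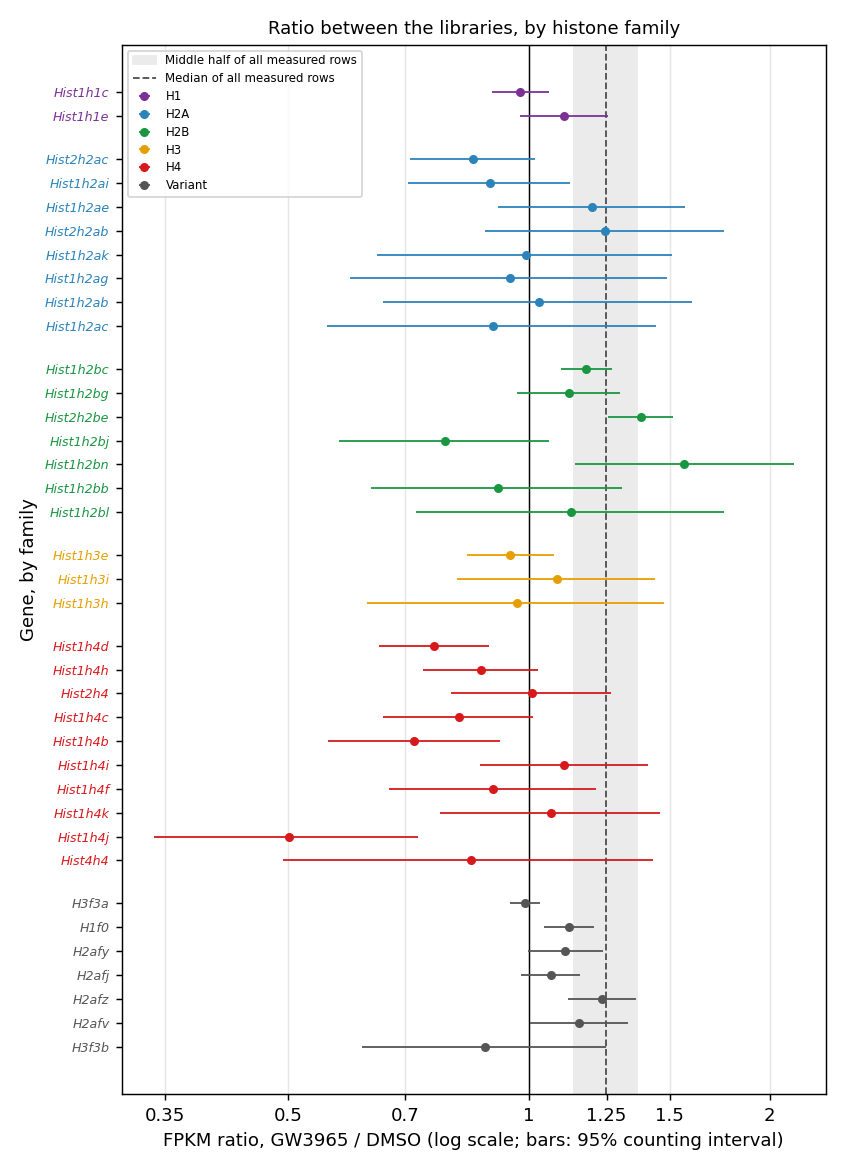
FPKM ratio of the GW3965 to the DMSO library (log axis) for the 37 histone genes with a mean of at least 1 FPKM, by family. Points are ratios of 1 library to 1 library, and bars are 95% intervals for counting error only. The dashed line is the median of all measured rows (1.2465) and the band runs between their quartiles. Of the 37 genes, 35 lie left of the dashed line, among them all 10 H4 genes, and 2 H2B genes lie right of it.

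The level of the replication-dependent H1 genes was carried by 2 of them. The linker variant H1f0, with 8.55 FPKM under DMSO and 9.60 under GW3965, is counted with the variants. Hist1h1c, the highest replication-dependent H1 gene, had 21.9 FPKM under DMSO and 21.4 under GW3965, from 1386 and 999 reads. Its ratio of 0.975 had a 95% interval of 0.898 to 1.06. The intervals given for ratios are exact binomial ones on recovered reads and cover counting error only, not the spread between cultures. For genes without introns the reads are the multiple nearest the RefSeq length, and with the fewest reads the steps allow, the intervals of 3 measured genes (Hist1h2bn, Hist1h4b and Hist1h4j) widen to include 1. Hist1h1e had 8.50 and 9.41 FPKM, a ratio of 1.11 (0.974 to 1.26). Hist1h1c made up 70.0% of the H1 sum under DMSO and 68.0% under GW3965. The other 3 H1 genes were not measured. Hist1h1b among them had 0.508 FPKM under DMSO and 0.229 under GW3965, from 36 and 12 reads, and is named here after its values were seen.

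The H2A genes lay on both sides of a ratio of 1, but all 8 measured ones were below the median of all measured rows. Of 14 rows, 8 were measured, with 5 lower and 3 higher under GW3965. Hist2h2ac, the highest, had 11.3 FPKM under DMSO and 9.65 under GW3965, a ratio of 0.851 (0.710 to 1.02). Hist1h2ai had 5.30 and 4.73 FPKM, and 88.4% of its 100-base windows recur in transcripts of other genes. The 3 higher ones were Hist2h2ab with 1.97 and 2.45 FPKM, Hist1h2ae with 2.40 and 2.88, and Hist1h2ab with 1.17 and 1.20. The other measured genes, Hist1h2ak, Hist1h2ag and Hist1h2ac, lay between 1.04 and 1.41 FPKM in both libraries, with ratios from 0.902 to 0.991. Every interval of the 8 H2A ratios included 1. Hist1h2ad stayed under 1 FPKM, with 0.509 under DMSO and 0.885 under GW3965.

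H2B had the highest ratio of summed FPKM of the histone families, 1.16, which was still below the median ratio of all measured rows (1.2465). Its 18 rows summed to 61.5 FPKM under DMSO and 71.4 under GW3965. Of 7 measured genes, 5 were higher under GW3965, but 5 of 7 also had a ratio below that median. Hist1h2bc, the highest replication-dependent gene in both libraries, had 37.4 and 44.0 FPKM, a ratio of 1.18 (1.10 to 1.27). It supplied 60.7% of the H2B sum under DMSO and 61.7% under GW3965. Its annotated transcript carries no stem-loop and joins 2 exons spread over chr13:23684199-23692908. That transcript has 1156 bases, while the fewest reads the steps allow go with a length of 504 bases. The gene model that was counted may thus differ from this transcript.

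A pair of H2B genes were the only measured histone genes above the median ratio of all measured rows. Hist2h2be (chr3:96221119-96223738, plus strand) had 3.45 FPKM under DMSO and 4.76 under GW3965, from 885 and 902 reads. Its ratio was 1.38 (1.26 to 1.52), and none of its 100-base windows recur in other genes. Hist1h2bn had 1.84 and 2.87 FPKM, from 78 and 90 reads, a ratio of 1.56 (1.14 to 2.14), with 52.1% of its windows shared. The steps also allow 26 and 30 reads for Hist1h2bn, with an interval of 0.892 to 2.75. Hist1h2bg had 9.97 and 11.2 FPKM and Hist1h2bl 1.14 and 1.29. The 2 lower H2B genes were Hist1h2bj, with 3.34 and 2.63 FPKM and a ratio of 0.786 (0.579 to 1.06), and Hist1h2bb, with 1.53 and 1.40. Hist1h2bf, under 1 FPKM, had 0.887 and 0.514.

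H3 genes of the replication-dependent class were low and alike in both libraries, and the 3 measured ones all had ratios below the median of all measured rows. Hist1h3e, the highest, had 6.73 FPKM under DMSO and 6.38 under GW3965, a ratio of 0.948 (0.837 to 1.07). Hist1h3i had 2.89 and 3.13 FPKM and Hist1h3h 1.36 and 1.32. The highest H3 gene below the level set for measured ones was Hist1h3d, with 1.04 and 0.938 FPKM, followed by Hist1h3a with 0.941 and 0.728 and Hist1h3f with 0.685 and 0.612. The intervals of these 6 ratios all included 1, and that of Hist1h3e ended below the median ratio of all measured rows.

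**Figure D2:**
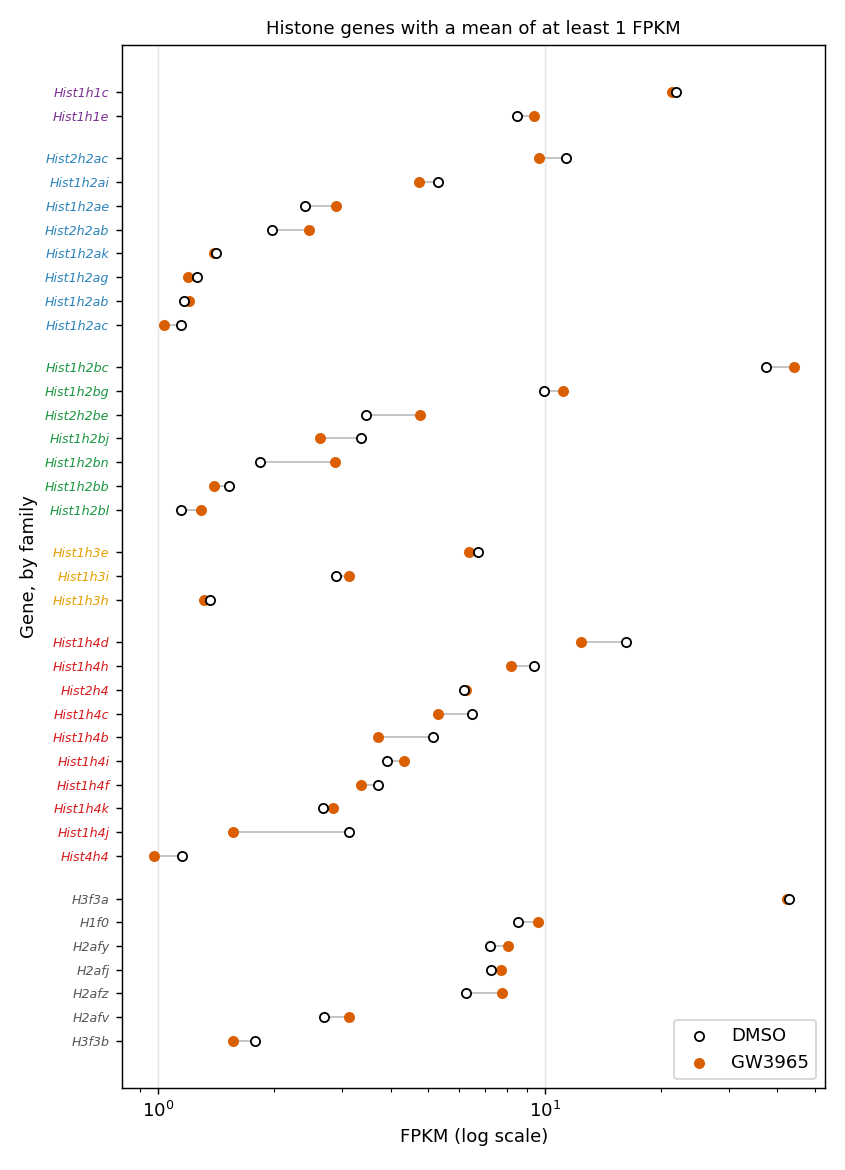
FPKM (log axis) in the DMSO library (open circles) and the GW3965 library (filled circles) for the 37 histone genes with a mean of at least 1 FPKM, by family, 1 library per group. H3f3a and Hist1h2bc lie highest, and the widest gap is that of Hist1h4j, from 3.12 to 1.56 FPKM.

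H4 had the lowest ratio of summed FPKM of the histone families, and H2A (0.982) and H3 (0.988) were also under 1. The H4 values here include Hist1h4j, whose ratio led to the choice of the histone genes, so they are a description only. H4 genes encode the same protein from separate loci, and 10 of 11 were measured. The 11 rows summed to 59.1 FPKM under DMSO and 49.2 under GW3965, a ratio of 0.833. Of the 10, 7 were lower and 3 higher, with a median ratio of 0.858. All 10 were below the median of all measured rows, as were all measured H1, H2A, H3 and variant genes and 5 of 7 H2B genes. The replication-dependent genes other than H4 summed to 134.38 and 143.66 FPKM, a ratio of 1.07, with 10 lower and 10 higher among the 20 measured.

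Hist1h4d (chr13:23581598-23582735, plus strand) was the highest H4 gene, with 16.3 FPKM under DMSO and 12.4 under GW3965. It rested on 446 and 251 reads, for a ratio of 0.761 (0.650 to 0.891), and none of its 100-base windows recur in other genes. Hist1h4b (chr13:23757013-23757409, plus strand) had 5.15 and 3.70 FPKM, from 192 and 102 reads, a ratio of 0.719 (0.560 to 0.919). The steps also allow 32 and 17 reads for it, with an interval of 0.374 to 1.33. In Hist1h4b 71.8% of windows are shared, and its exon overlaps that of 4930558J22Rik.

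Hist1h4j (chr13:21735064-21735837, plus strand) had 3.12 FPKM under DMSO and 1.56 under GW3965. These correspond to 108 and 40 reads at the allowed length nearest that of RefSeq (439 bases, against 423 in RefSeq). The ratio was 0.501 with an interval of 0.340 to 0.727. The FPKM steps also allow as few as 27 and 10 reads, for which the interval widens to 0.216 to 1.07 and includes 1. In the annotated transcript of Hist1h4j, of 774 bases, 19.0% of the 100-base windows recur in other genes, more of them in Hist1h4h than in any other. The counted gene was shorter (439 bases for 108 and 40 reads), so the share in the counted part can differ and was not computed.

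The other H4 genes had ratios nearer to 1. Hist1h4c had 6.51 FPKM under DMSO and 5.31 under GW3965, a ratio of 0.816 (0.657 to 1.01). Hist1h4h had 9.41 and 8.19 FPKM, a ratio of 0.870 (0.736 to 1.03). Hist1h4f had 3.72 and 3.35, and Hist4h4, which lies on chromosome 6 away from the large clusters, had 1.15 and 0.977. The 3 higher genes were Hist1h4i with 3.92 and 4.34, Hist1h4k with 2.67 and 2.84, and Hist2h4 with 6.20 and 6.25. Of the H4 intervals, those of Hist1h4b, Hist1h4d and Hist1h4j lay below 1 and the other 7 included it, and with the fewest reads the steps allow only that of Hist1h4d lay below 1. The H4 gene that was not measured, Hist1h4a, had 0.954 FPKM under DMSO and 0.307 under GW3965, from 42 and 10 reads, a ratio of 0.322 (0.144 to 0.653). It is named after its values were seen.

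**Figure D3:**
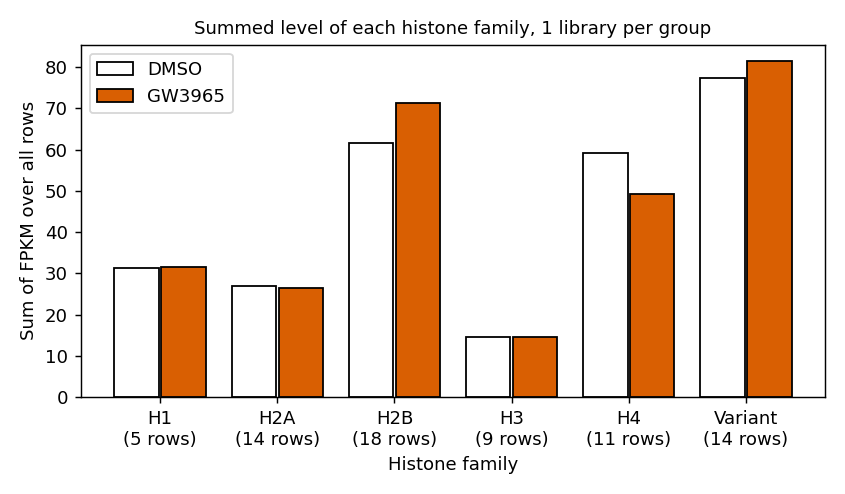
Sum of FPKM over all rows of each histone family (the number of rows is under each name) in the DMSO library (white bars) and the GW3965 library (filled bars), 1 library per group and so no error bars. H2B is higher under GW3965 (61.5 and 71.4 FPKM) and H4 lower (59.1 and 49.2), with H1, H2A and H3 nearly level.

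Of the variant genes, H3f3a, which encodes the replacement H3 variant deposited outside S phase, had the highest FPKM and nearly the same value in both libraries. It had 43.0 FPKM under DMSO and 42.5 under GW3965, a ratio of 0.988 (0.946 to 1.03). H3f3b, which encodes the same protein, had 1.78 and 1.57 FPKM, from at least 86 and 56 reads. In spliced genes such as these the steps fix only the fewest reads, so their intervals are at their widest.

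The other measured variants were all higher under GW3965, each by less than the median of all measured rows. H2afz alone among them exceeded the median of the rows with gene symbols (1.2255). H2afz, which encodes H2A.Z, found around transcription start sites, had 6.28 FPKM under DMSO and 7.75 under GW3965, a ratio of 1.23 (1.12 to 1.36). H2afv, its close paralog, had 2.70 and 3.11. H2afy, which encodes macroH2A, had 7.23 and 8.03, and H2afj had 7.26 and 7.73. H1f0, the linker variant of differentiated and resting cells, had 8.55 and 9.60, a ratio of 1.12 (1.04 to 1.21). Of the 7 variant intervals, 3 lay above 1 (H2afz, H2afv and H1f0), none below, and 4 ended below the median ratio of all measured rows. Of the 30 intervals of measured replication-dependent genes, 11 ended below that median and 1 lay above it. Among the 10 H4 intervals 6 ended below it. With the fewest reads the steps allow, some of these intervals are wider.

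Among the 7 variants that were not measured, H2afy2, which encodes the second macroH2A, had 0.422 FPKM under DMSO and 0.736 under GW3965, from at least 59 and 76 reads. Its ratio of 1.74 had an interval of 1.22 to 2.49. The other 6 were germline variants and H1fx. H1fnt had 0.024 and 0.032 FPKM, H1foo 0.022 and 0.029, H1fx 0.023 and 0.016. H2afb1 had 0.023 and 0.094, H2afb2 0.079 and 0.053, and H2afb3 was listed at 0 under DMSO and at 0.127 under GW3965. These rest on 5 recovered reads or fewer per library, too few to show a difference. H2afx is not analysed here.

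The 34 rows that were not measured comprise 27 replication-dependent and 7 variant genes. Hist1h2br was listed at 0 in both libraries. Hist1h2aa, Hist1h2al and Hist1h2ba, like H2afb3, were listed at 0 under DMSO alone, with 2 to 5 reads under GW3965. By locus, the 49 Hist1 genes on chromosome 13 summed to 168.84 FPKM under DMSO and 168.02 under GW3965, and the 5 Hist2 genes on chromosome 3 to 23.0 and 23.2. The 2 Hist3 rows on chromosome 11, Hist3h2ba and the pseudogene Hist3h2bb-ps, summed to 0.461 and 0.701.

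Near-identical copies and overlaps limit how well single rows are known. The share of a gene's 100-base windows found in another gene's transcripts had a median of 31.1% over the replication-dependent genes (0 to 100%). It was over 10% in 44 of 57, against 5 of 14 variants. These shares are of the annotated transcripts, whose lengths can differ from those of the counted genes. In 18 replication-dependent and 6 variant genes an exon overlaps one of another gene on either strand, and whether reads were counted by strand is not stated in the labels.

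Genes that act on histone mRNA and protein had median ratios near that of all measured rows. Of 22 genes of histone mRNA transcription, 3′ processing and decay, 21 were measured, with a median ratio of 1.23. None was past 1.5-fold on the log2(FPKM + 1) scale, where 3.46% of all measured rows were higher and 0.0757% lower. With shares so low, nothing is read from finding none in so short a list. SLBP's gene Slbp had 2.09 FPKM under DMSO and 2.56 under GW3965. Npat, which activates histone gene transcription in S phase, had 2.51 and 3.55, and its partner in histone locus bodies Casp8ap2 had 2.72 and 4.06. Zcchc11, a terminal uridylyltransferase that marks histone mRNA for decay, had 5.85 and 8.81, and Prkdc, a DNA damage kinase, 2.15 and 3.13. The difference between this list and the histone genes was not tested.

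Of 27 histone chaperone and deposition genes, 26 were measured, with a median ratio of 1.19. None was past 1.5-fold on the log2(FPKM + 1) scale (3.46% of all measured rows were higher and 0.0757% lower), and nothing is read from that. Hat1, which acetylates new H4, had 4.91 FPKM under DMSO and 7.47 under GW3965. Asf1a, which carries H3 with H4, had 2.92 and 4.33. Rbbp4 and Rbbp7, histone-binding subunits of several complexes, had 7.29 and 9.92 and 12.9 and 17.3. Their summed level was 191 FPKM under DMSO and 231 under GW3965 for the whole list.

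Of 30 replication and S phase genes, 15 were measured, with a median ratio of 1.20. None was past 1.5-fold on the log2(FPKM + 1) scale (3.46% of all measured rows were higher and 0.0757% lower), and nothing is read from that. Pcna, the polymerase clamp, which also acts in repair, had 34.5 FPKM under DMSO and 49.99 under GW3965. Cdk2 had 5.71 and 7.41, Rrm1 3.85 and 5.03 and Mcm2 2.13 and 2.77. The proliferation marker Mki67 was at 0.389 and 0.556 and Top2a at 0.466 and 0.550, below the level set for measured genes. The centromeric H3 variant gene Cenpa, outside the symbol rule, had 0.884 and 1.08, and Hils1 was listed at 0 and 0.152.

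**Figure D4:**
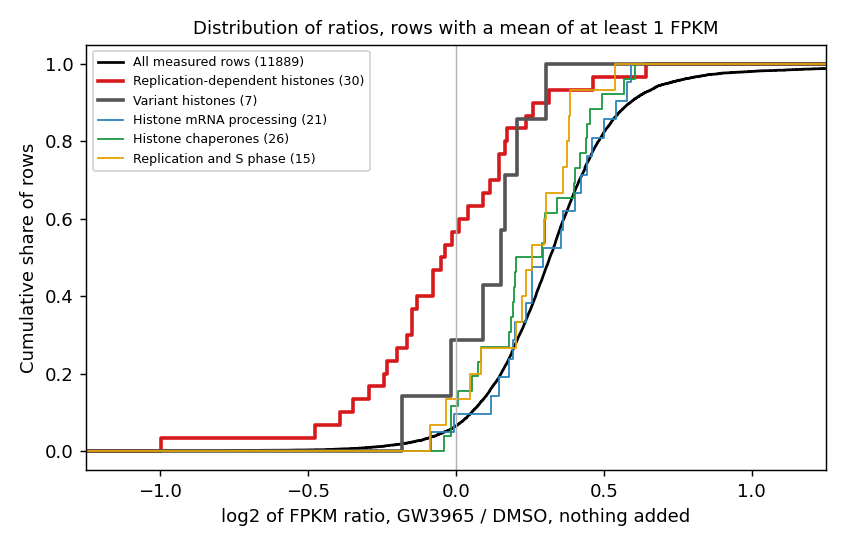
Cumulative share of rows (vertical axis) by log2 ratio of GW3965 to DMSO FPKM with nothing added (horizontal axis) for all 11889 measured rows, the histone classes and 3 lists of histone-related genes, the number of rows in each in brackets. The replication-dependent line runs left of the others over most of its length, the variant line lies between it and the all-row line, and the 3 lists lie near the all-row line.

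Markers of other cell types differed between the libraries too. The 6 mesothelium and fibroblast markers summed to 15.5 FPKM under DMSO and 23.6 under GW3965, with 4 measured. These were Dcn at 6.91 and 11.6, Col3a1 at 5.08 and 7.07, Upk3b at 1.38 and 2.51, and Col1a1 at 1.61 and 1.75. The ratio of Col1a1, 1.09, was below the median of all measured rows. The 5 B cell markers summed to 2.72 and 4.03 with 2 measured, and the 4 neutrophil markers to 3.50 and 3.95 with 1 measured. The ratio of the neutrophil sums, 1.13, was also below that median. T and NK cell, mast cell and erythroid markers were not measured, with sums between 0.342 and 1.30 FPKM, and 2 of 4 erythroid markers were in the table. No marker in the table was at 0 in both libraries. The part of other cell types in the histone ratios was not tested, and in bulk RNA fewer dividing cells and less histone mRNA per cell cannot be told apart.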

How the data were processed

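RNA-seq of peritoneal macrophages was analysed from 1 DMSO and 1 GW3965 library. The authors deposited 1 table of FPKM per gene. Per the submitters' processing notes, STAR 2.3.0, HTSeq 0.5.4p3 and the builds mm10 and GRCm38 were used; neither strand handling nor that of reads matching several genes is stated. Columns were matched to samples by name.

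Rows with a mean of at least 1 FPKM were called measured. A row was past the fold limit at 1.5-fold on log2(FPKM + 1), where 1 FPKM is the pseudocount, as deposited or centred on the median of all measured rows. Ratios with nothing added were used to compare members, a choice made after seeing the data. No test between the groups was possible with 1 library each, so there are no p-values. Total reads and each member's reads were recovered as the whole numbers that fit FPKM in both libraries. Dividing lengths were taken as gene length less 99 bases, the value that 395 rows gave, against 93 for the next best. Of depths that are whole multiples of each other, the smallest that fitted was kept. For intronless genes the multiple nearest the RefSeq length was kept, otherwise the fewest reads. Recovery was tested on simulated data. Intervals are Clopper-Pearson (95%) for counting error only.

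Gene positions and transcripts came from GENCODE M21 (GRCm38) and promoters from RefSeq. Members, lists of related genes and markers were chosen with earlier results of these data known. Genes named in the text are all measured members, all variants, the 5 highest replication-dependent members under 1 FPKM, and up to 4 measured genes of each list with the largest differences on the log2(FPKM + 1) scale; others are said to be named after their values were seen, or give the level of a list's best known gene. Tools were scipy 1.17.1, pandas 2.3.3 and numpy 2.4.6 under Python 3.11.15, with figures from matplotlib 3.10.9.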

Additional observations from a re-analysis of the deposited data

How the results depend on the processing

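Without a replicate, scaling was the main limit, and depth limited genes with few reads. No paired analysis was possible because neither treatment has a second library. The count of histone genes higher under GW3965 was 0, and became 1 with a pseudocount of 0.1 FPKM or none and 2 with both libraries scaled to the same sum of FPKM. The count of lower genes was 1. It was 0 at a mean of at least 5 FPKM, with the same sum, at a 2-fold limit, or without rows sharing over 10% of their windows. It was 3 when centred on the median row or scaled to the same upper quartile, and 5 when centred with no pseudocount.

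The median log2 ratio of replication-dependent genes, with 1 FPKM added, was -0.03. It was -0.275 centred, -0.211 at the same upper quartile, 0.161 at the same sum and -0.361 centred with no pseudocount. The variants' median of 0.134 was -0.110, -0.130, 0.362 and -0.167 under these settings, so both directions depend on the scaling. The processing list's 0.218 was -0.0257, -0.0042, 0.447 and -0.0239, the chaperones' 0.184 was -0.06, -0.0317, 0.418 and -0.0721, and the replication list's 0.180 was -0.0636, -0.0321, 0.386 and -0.0596, or 0.425 at a mean of at least 5 FPKM. The replication-dependent median was the lowest of the 5 under these 4 settings. Centring shifts all 5 medians alike and the other scalings multiply 1 library by a constant. This order was thus largely fixed in advance and carries no weight. Of 266 values for 38 single genes under these alternatives, 247 kept their side of the limit, 18 moved past it, none changed direction past it, and Hist1h4j fell short of it at the same sum (-0.52). Settings with no pseudocount were added after seeing the data. H2afx was to be left out of the variants with H2afj, but is not analysed here, so only H2afj was.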

Other observations

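Head-to-head H2A and H2B genes varied in how far apart their levels were. In the annotation 11 pairs of replication-dependent genes face apart with at most 1000 bases between their starts, and 10 of them pair H2A with H2B. In the 9 of these with both genes above 0 under DMSO, the levels were 1.10 to 32.5-fold apart, and under 2-fold apart in 3. The widest pair was Hist1h2ac and Hist1h2bc, 250 bases apart, with 1.15 and 37.4 FPKM under DMSO and 1.04 and 44.0 under GW3965. Hist2h2ac and Hist2h2be, 238 bases apart, had ratios of 0.851 and 1.38, on opposite sides of 1. Hist1h2ak and Hist1h2bn, 295 bases apart, had 0.991 and 1.56, and Hist1h2ag and Hist1h2bj, 269 bases apart, 0.947 and 0.786. Levels per length across genes depend on the length the authors divided by.

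Promoters of the classes differed in 2 short motifs. In RefSeq windows from 250 bases before to 50 after the start, TATAAA on the gene's strand was present in 26 of 50 replication-dependent genes with a window (52.0%), 1 of 13 variants (7.69%) and 9.7% of 26962 other genes. CCAAT on either strand was present in 86.0%, 69.2% and 41.0%. Both were present in 44.0%, 7.69% and 4.26%. The replication-dependent genes with a window but no CCAAT were all H4, namely Hist1h4b, Hist1h4f, Hist1h4h, Hist1h4i, Hist1h4j, Hist1h4k and Hist4h4. The H4 genes with CCAAT were Hist1h4a, Hist1h4c and Hist1h4d. The motifs do not overlap in their letters, and a match is a description, not a site.

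Annotated transcripts run on past the stem-loop by at least 100 bases in 19 genes and by fewer in 17. The levels of the 19 ran from 0.058 to 21.9 FPKM under DMSO, with a median of 2.40, and those of the 17 from 0.087 to 11.3, with a median of 0.941. The ranges overlap over most of their length.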
